A study of Mus musculus with 39 samples.

Results

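The genotype effect was examined in the basolateral amygdala (BLA) of naive mice, which had not been fear-conditioned. It rests on the 5 libraries labelled BLA, APP/Tau and naive and the 5 labelled BLA, Control and naive, 10 of the 39 libraries of the series. APP/Tau mice were a cross of line J9, whose human APP transgene holds the APPSw,Ind (Swedish, Indiana) changes, with line PS19, whose human tau transgene is Tau P301S. They also carried CaMKIIα-Cre and RiboTag, an allele that tags ribosomes in cells with Cre, here glutamatergic forebrain neurons. Control mice carried CaMKIIα-Cre and RiboTag without either transgene. All mice were females on a C57BL/6 background and 9 months old. The RNA was the RiboTag input, taken from a lysate cleared of nuclei and mitochondria before tagged ribosomes are pulled down, so neurons, glia and vessel cells all contributed. In such bulk RNA, fewer cells of a type and less RNA per cell cannot be told apart. The tissue came from micropunches, which can take in neighbouring nuclei. Replicates are separate mice as the labels give them.

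The BLA stores associations between a cue and a threat, and its output comes mainly from glutamatergic projection neurons. The APP transgene of line J9 is driven by the PDGF-B promoter, and the tau transgene of line PS19 by the mouse prion protein (Prnp) promoter, both active mainly in neurons. In mouse models of this kind, microglia and astrocytes around plaques and tau-bearing neurons take up known disease states, with Cst7, Clec7a and Trem2 as microglial and Gfap as astrocytic markers.

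Total counts ran from 51.8 to 74.3 M counts per library (median 57.8 M). Levels below are CPM, read counts scaled to a common library size with TMM factors. Differences are log2 fold changes, APP/Tau over control, ± SE from the edgeR quasi-likelihood test, with p-values adjusted by Benjamini-Hochberg over all genes tested. A gene is called where the adjusted p is under 0.05. The libraries APP/Tau 2 and Control 1 stood apart. APP/Tau 2 had the highest level of the striatal marker Ppp1r1b (1166 CPM, against 116 to 404 CPM in the other libraries) and the lowest of the BLA marker Rspo2 (5.71 CPM, against 33.9 to 64.1 CPM). Control 1 had 9194 CPM of 18S ribosomal RNA, against 1777 to 3433 CPM in the other libraries. Every BLA library but APP/Tau 2 thus held clear Rspo2, and every library held the glutamate transporter Slc17a7 (393 to 1457 CPM in APP/Tau mice and 1370.3 to 1671 CPM in controls). No pair of libraries within a group was a duplicate.

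Of 21443 genes tested, 27 were called between naive APP/Tau and control mice. There were 9 genes higher in APP/Tau mice (0.042% of those tested) and 18 lower (0.0839%). The median log2 fold change over all genes was 0.01. An unadjusted p under 0.05 was found for 3802 genes, 1958 of them higher and 1844 lower. All APP/Tau libraries lay above all control libraries for 536 genes (2.5%) and below them for 514 genes (2.4%). All 27 called genes were among these. The genes that held up best, called again in each of the 10 fits that left out 1 library, were 8 genes at 2 loci: Ltn1, Usp16, Cct8, Rwdd2b, Bach1 and N6amt1 on chromosome 16, and Prn and Lamr1-ps1 beside the prion gene on chromosome 2. The other 19 calls were lost in at least 2 of those fits. Lamr1-ps1, without counts in controls, passed the filter on low counts only through the APP/Tau libraries. The count of calls itself ran from 9, without APP/Tau 3, APP/Tau 5 or Control 2, to 342, without APP/Tau 4. It was 15 without APP/Tau 1 and 10 without Control 5. DESeq2 called 1205 genes and limma-voom 16, with all 27 and 16 of the called genes among them.

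Promoters from both loci are printed here, since the genes of each locus differed together. The windows run from 250 bases before to 50 bases after the gene start (RefSeq, build GRCm38.p6), 5′ to 3′ on the gene's own strand. Prnp is shown because its promoter drives the tau transgene and because Prn shares the same window. Ltn1, Usp16 and Cct8 are shown as the chromosome 16 genes with the smallest p-values. Capitals mark the GC box GGGCGG or its complement CCGCCC, the letters that the factor Sp1 is known to bind.
Prnp: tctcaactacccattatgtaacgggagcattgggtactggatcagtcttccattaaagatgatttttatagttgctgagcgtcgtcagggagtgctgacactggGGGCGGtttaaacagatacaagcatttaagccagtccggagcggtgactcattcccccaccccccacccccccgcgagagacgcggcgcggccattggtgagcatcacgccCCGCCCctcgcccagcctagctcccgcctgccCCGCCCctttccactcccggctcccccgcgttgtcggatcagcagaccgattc
Ltn1: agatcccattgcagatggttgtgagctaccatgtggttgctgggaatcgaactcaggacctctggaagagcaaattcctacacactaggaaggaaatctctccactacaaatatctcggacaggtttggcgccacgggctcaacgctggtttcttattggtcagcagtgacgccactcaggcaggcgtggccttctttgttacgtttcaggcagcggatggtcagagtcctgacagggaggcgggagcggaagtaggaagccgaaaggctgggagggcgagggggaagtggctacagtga
Usp16: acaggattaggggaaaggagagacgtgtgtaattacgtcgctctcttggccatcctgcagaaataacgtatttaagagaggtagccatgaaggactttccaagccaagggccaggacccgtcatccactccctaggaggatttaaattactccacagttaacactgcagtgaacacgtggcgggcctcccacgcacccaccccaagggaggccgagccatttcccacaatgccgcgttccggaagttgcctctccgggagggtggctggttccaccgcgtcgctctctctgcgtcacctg
Cct8: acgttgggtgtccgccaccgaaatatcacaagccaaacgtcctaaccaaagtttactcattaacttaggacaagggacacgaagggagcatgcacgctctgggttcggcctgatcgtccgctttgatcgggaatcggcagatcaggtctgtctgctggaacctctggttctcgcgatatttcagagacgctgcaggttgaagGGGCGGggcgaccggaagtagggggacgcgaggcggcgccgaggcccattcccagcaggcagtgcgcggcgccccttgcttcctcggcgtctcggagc
The windows are chr2:131909678-131909977 on the plus strand for Prnp, chr16:87432557-87432856 on the minus strand for Ltn1, chr16:87454735-87455034 on the plus strand for Usp16 and chr16:87495820-87496119 on the minus strand for Cct8. The Prnp window holds 3 GC boxes and the Cct8 window 1, while these letters are not in the Ltn1 and Usp16 windows. Of 32817 promoter windows in the table, 11693 (35.6%) hold a GC box on either strand. Of the 27 called genes, 14 matched a window, and 10 of these hold one. A gene was counted if any of its windows held a box, and Prn and Prnp were counted apart though they share a window. The share over all windows counts single windows, so the shares are not like for like. No other motif was searched.

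At the prion locus on chromosome 2, the counts of 3 genes next to each other were higher in APP/Tau mice. The tau transgene is driven by the Prnp promoter. How many of these counts are reads of the transgene was not tested and is not known. Prnp encodes the cellular prion protein, a membrane-anchored glycoprotein of neurons. Prnp had 1389, 1074, 1395, 1530.0 and 1527 CPM in APP/Tau mice 1 to 5, against 942, 961, 915, 853 and 1040.1 CPM in control mice 1 to 5. Every APP/Tau mouse lay above every control, with the lowest level in APP/Tau 2, and the mean was 1383 ± 186 CPM in APP/Tau mice and 942 ± 68.3 CPM in controls (SD, n = 5 each; log2 fold change 0.55 ± 0.09, adjusted p = 0.0478). This call is close to the threshold and stood in 2 of the 10 fits without 1 library. The adjusted p was 0.0524 by limma-voom and 7.76e-05 by DESeq2. Prn, an entry that overlaps Prnp and starts at the same base, had 89.9, 75.3, 88.9, 105 and 104 CPM in APP/Tau mice 1 to 5, against 51.5, 57.2, 52.3, 53.5 and 56.02 CPM in control mice 1 to 5. Its groups did not overlap either (log2 fold change 0.78 ± 0.09, adjusted p = 0.00275), and APP/Tau 2 was again the lowest of its group. Since the 2 entries overlap, how reads were shared between them is uncertain. Lamr1-ps1, a pseudogene that precedes Prn, was not seen in any control and was seen in every APP/Tau mouse. Its raw counts were 54, 75, 41, 30 and 35 in APP/Tau mice 1 to 5, against 0 in each of the 5 control mice. Taken against a floor of 3 counts over the control group, it was at least 78.6-fold higher in APP/Tau mice (adjusted p = 0.00328). Lamr1-ps1 passed the filter on low counts only through the APP/Tau libraries, so its p-value and its lack of overlap are descriptions. Lamr1-ps1 resembles the ribosomal protein gene Rpsa, and whether reads were shared with that gene was not tested. Among counts of 1 to 20, even numbers made up 58.7 to 69.0% per library, and how mates of a pair were counted is not given, so small counts may rest on fewer fragments.

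The neighbours on both sides were not called. Rassf2, a Ras-association domain protein gene beyond Prnp, had a log2 fold change of 0.27 ± 0.09 (adjusted p = 0.144), and Slc23a2, a vitamin C transporter gene, one of 0.12 ± 0.07 (adjusted p = 0.432). Prnd, between Prnp and Rassf2, did not pass the filter on low counts.

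The mouse genes whose human forms were introduced were not called. App had 1986, 1725, 2037, 2156 and 1898 CPM in APP/Tau mice 1 to 5, against 2088, 2208, 2024, 2151 and 2349 CPM in control mice 1 to 5. The groups overlapped, and the log2 fold change was -0.14 ± 0.07 (unadjusted p = 0.0646, adjusted p = 0.316). Mapt, which encodes tau, had 639, 531, 607, 655 and 607 CPM in APP/Tau mice 1 to 5, against 687, 646, 561, 593 and 602 CPM in control mice 1 to 5, with groups that overlapped (log2 fold change -0.02 ± 0.07, adjusted p = 0.905). A span of 1.96 SE each way around this log2 fold change ran from -0.17 to 0.12. The counts are per mouse gene symbol, so how many reads of a human transgene they hold is not known. Camk2a, whose promoter drives Cre in both groups, had 1859 to 2380.3 CPM in APP/Tau mice and 2484 to 3180.4 CPM in controls. All APP/Tau mice lay below all controls for it, without a call (log2 fold change -0.39 ± 0.09, adjusted p = 0.0832). Rpl22, the gene that RiboTag modifies, ranged from 62.6 to 74.7 CPM in APP/Tau mice and 61.01 to 76.5 CPM in controls and overlapped.

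**Figure D1:**
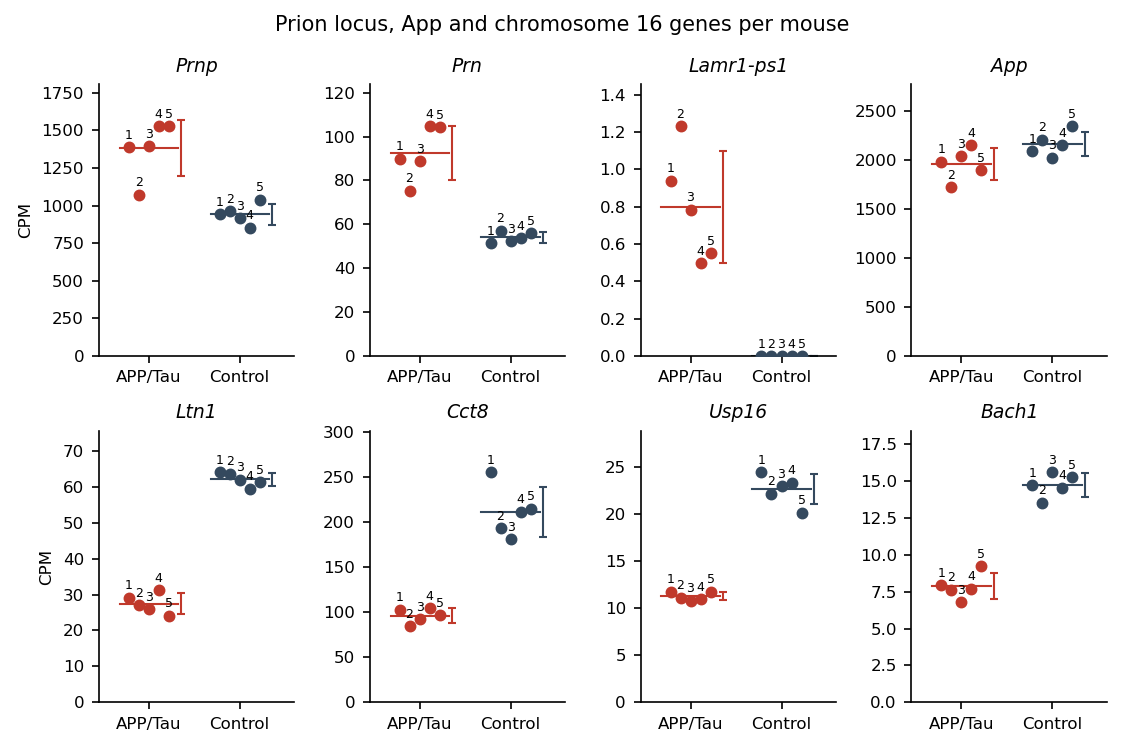
Levels in CPM (y axis, from 0) of the prion locus genes, App and 4 chromosome 16 genes in APP/Tau mice (red) and controls (dark blue); points are single mice, numbered by replicate, lines are means and bars are SD (n = 5 each). Prnp, Prn and Lamr1-ps1 lie above every control in APP/Tau mice, App overlaps, and the chromosome 16 genes lie at less than 0.6 of the control mean.

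On chromosome 16, a run of neighbouring genes between App and Hunk was lower in APP/Tau mice by about 1 log2 unit. In the RefSeq order (GRCm38.p6, used here for order only), the run from N6amt1 to Grik1 holds 17 genes, of which 9 passed the filter on low counts and 7 were called, all lower. The ratio of the mean level in APP/Tau mice to that in controls ran from 0.430 to 0.534 over the 9 genes (median 0.488), and the median log2 fold change was -1.04. The 15 tested genes flanking the run, from App on one side to Hunk on the other, held 0 calls by edgeR, with log2 fold changes of -0.26 to 0.56. The list for this run was written with earlier results on these mice known, so its direction is a description.

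The members have various known tasks. Ltn1 encodes listerin, the ubiquitin ligase that marks peptides stuck on stalled ribosomes. Ltn1 had 29.1, 27.05, 25.9, 31.3 and 24.1 CPM in APP/Tau mice 1 to 5, against 63.96, 63.6, 61.95, 59.5 and 61.2 CPM in control mice 1 to 5. Every APP/Tau mouse lay far below every control, and this was the smallest p of all genes tested (log2 fold change -1.17 ± 0.08, adjusted p = 1.88e-05). Usp16 encodes a deubiquitinase of histone H2A. Usp16 had 11.8, 11.1, 10.8, 10.95 and 11.8 CPM in APP/Tau mice 1 to 5, against 24.5, 22.2, 23.01, 23.4 and 20.2 CPM in control mice 1 to 5 (log2 fold change -1.003 ± 0.08, adjusted p = 7.19e-05). Cct8 encodes a subunit of the chaperonin CCT, which folds actin and tubulin. Cct8 had 103, 84.7, 92.04, 105 and 96.9 CPM in APP/Tau mice 1 to 5, against 255, 193, 181, 211 and 215 CPM in control mice 1 to 5 (log2 fold change -1.13 ± 0.09, adjusted p = 0.000142). In each of these the APP/Tau mice lay close together, and the groups were far apart.

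Rwdd2b had 4.57, 4.32, 4.05, 4.27 and 4.73 CPM in APP/Tau mice 1 to 5, against 12.6, 9.53, 9.77, 8.94 and 10.2 CPM in control mice 1 to 5 (log2 fold change -1.22 ± 0.11, adjusted p = 0.000424). Bach1 encodes a haem-sensing repressor of antioxidant genes. Bach1 had 7.93, 7.63, 6.803, 7.71 and 9.23 CPM in APP/Tau mice 1 to 5, against 14.7, 13.5, 15.6, 14.5 and 15.3 CPM in control mice 1 to 5 (log2 fold change -0.90 ± 0.10, adjusted p = 0.00144). N6amt1 encodes the catalytic subunit of a methyltransferase that modifies the translation termination factor eRF1. N6amt1 had 10.7, 8.86, 11.9, 10.97 and 7.43 CPM in APP/Tau mice 1 to 5, against 16.2, 20.8, 20.2, 21.3 and 23.7 CPM in control mice 1 to 5 (log2 fold change -1.04 ± 0.14, adjusted p = 0.009802). Grik1 encodes the kainate receptor subunit GluK1, found on amygdalar interneurons among others. Grik1 had 4.401, 6.08, 4.55, 4.42 and 4.42 CPM in APP/Tau mice 1 to 5, against 12.7, 8.15, 10.5, 8.62 and 11.5 CPM in control mice 1 to 5 (log2 fold change -1.10 ± 0.15, adjusted p = 0.0111). Grik1 was the weakest of the called members, kept in 8 of the 10 fits without 1 library, and its highest APP/Tau level was in APP/Tau 2.

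B130034C11Rik (log2 fold change -1.01 ± 0.31, adjusted p = 0.123) and 2810407A14Rik (-0.96 ± 0.26, adjusted p = 0.0991), non-coding RNA genes within the run, had values of the same size and were not called. Levels were low, 0.2302 to 0.688 CPM in APP/Tau mice and 0.606 to 1.03 CPM in controls for B130034C11Rik and 0.417 to 0.764 CPM in APP/Tau mice and 0.692 to 1.301 CPM in controls for 2810407A14Rik. Tiam1, the nearest well-expressed gene beyond Grik1, overlapped between groups (log2 fold change 0.12 ± 0.11, adjusted p = 0.599). Directly beyond Grik1, the non-coding genes 4930590A17Rik, LOC115486002 and Gm33207 did not pass the filter on low counts in the BLA. In the naive hippocampus LOC115486002 was at -1.47 ± 0.50 and Gm33207 at -1.29 ± 0.44. Gm46546, the next tested gene, was at 0.21 ± 0.24 in the BLA and 0.20 ± 0.21 in the hippocampus. Where the run ends on this side is thus uncertain.

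**Figure D2:**
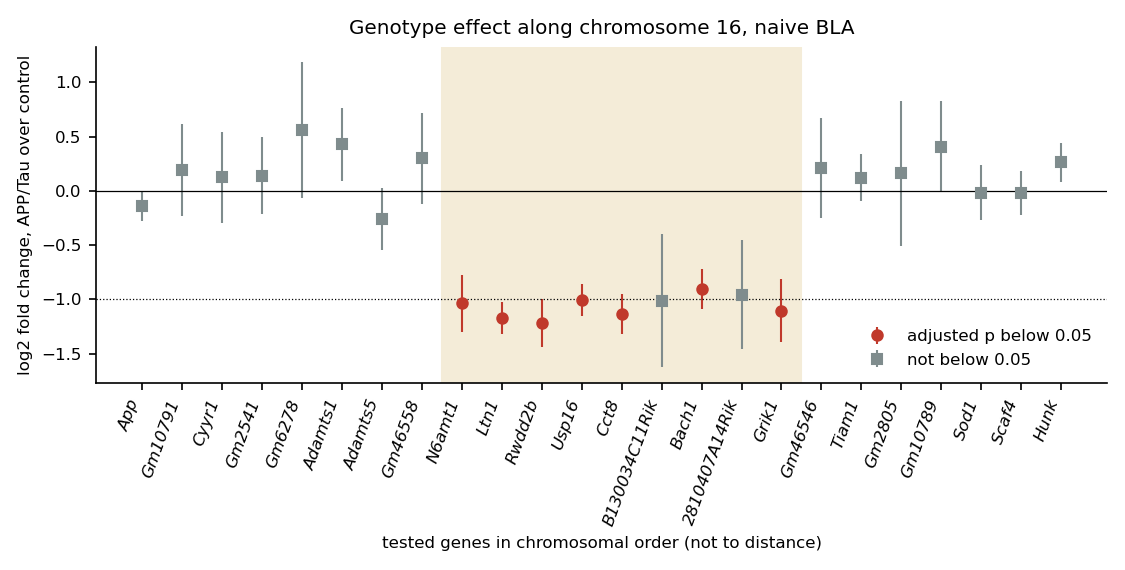
Log2 fold change, APP/Tau over control (y axis), for the tested genes of chromosome 16 in gene order (x axis, not to distance); bars are 1.96 SE, circles are called genes, squares are not called, and the shaded run is N6amt1 to Grik1. The shaded genes lie between -1.22 and -0.90, and the flanking genes between -0.26 and 0.56.

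The partners of these gene products did not pass the test. They were looked up after the values of the run were seen. The other 7 subunits of the CCT chaperonin, Tcp1 and Cct2 to Cct7, had log2 fold changes of -0.19 to -0.04 with 0 called by edgeR. Cct4 alone had an unadjusted p under 0.05 (0.0428). Nemf, which works with listerin on stalled ribosomes, was at -0.18 ± 0.07 (adjusted p = 0.228). Trmt112, the partner of N6amt1, was at 0.11 ± 0.10, and Etf1, which encodes eRF1, at -0.09 ± 0.05. Hmox1, the haem oxygenase gene that Bach1 is known to repress, had 5.305, 3.996, 4.74, 4.600 and 7.97 CPM in APP/Tau mice 1 to 5, against 3.898, 2.500, 3.95, 2.99 and 3.199 CPM in control mice 1 to 5. Its groups did not overlap, and it was not called (log2 fold change 0.69 ± 0.20, adjusted p = 0.108).

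The log2 fold changes of these genes had the same sign in the trained BLA and in the hippocampus, each with its own APP/Tau and control libraries. Whether BLA and hippocampal libraries come from the same mice is not given, so the tissues may not be independent. Ltn1 had log2 fold changes of -1.17 ± 0.08 in the naive BLA, -1.13 ± 0.09 in the trained BLA and -1.13 ± 0.07 in the naive hippocampus. The values for Cct8 were -1.13 ± 0.09, -0.97 ± 0.09 and -0.97 ± 0.08 in the same order, and those for Bach1 -0.90 ± 0.10, -0.80 ± 0.11 and -0.82 ± 0.10. Grik1 was at -1.10 ± 0.15, -0.68 ± 0.27 and -0.96 ± 0.14. No difference of these effects was called, and the difference for Grik1 between naive and trained mice was -0.42 ± 0.36 (adjusted p = 0.949).

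Outside these loci, 6 genes rose and 11 fell. Of those that rose, Cd180 encodes a Toll-like receptor relative of B cells and myeloid cells. Cd180 had 1.97, 3.85, 2.905, 1.62 and 3.88 CPM in APP/Tau mice 1 to 5, against 0.416, 0.931, 1.03, 0.684 and 0.7295 CPM in control mice 1 to 5 (log2 fold change 1.90 ± 0.30, adjusted p = 0.0375). All APP/Tau mice lay above all controls, with the highest levels in APP/Tau 5 and 2. A2m encodes a protease inhibitor. A2m had 0.765, 0.756, 0.497, 0.662 and 1.45 CPM in APP/Tau mice 1 to 5, against 0.114, 0.139, 0.0701, 0.234 and 0.0748 CPM in control mice 1 to 5 (log2 fold change 2.68 ± 0.41, adjusted p = 0.0323), with 26 to 92 raw counts in APP/Tau mice and 4 to 14 in controls. A2m thus passed the filter on low counts mainly through the APP/Tau libraries. Scara3, a scavenger receptor gene, had 27.2, 33.3, 31.1, 29.7 and 38.5 CPM in APP/Tau mice 1 to 5, against 16.2, 20.3, 22.8, 21.9 and 20.3 CPM in control mice 1 to 5 (log2 fold change 0.66 ± 0.11, adjusted p = 0.0422). Aldh3b1, an aldehyde dehydrogenase gene, had 4.71, 6.18, 5.35, 5.79 and 6.12 CPM in APP/Tau mice 1 to 5, against 3.198, 2.67, 2.37, 3.15 and 3.31 CPM in control mice 1 to 5 (log2 fold change 0.94 ± 0.14, adjusted p = 0.0226). Mcam, a cell adhesion gene of vessel walls, averaged 15.5 ± 2.97 CPM in APP/Tau mice and 8.55 ± 1.27 CPM in controls (SD, n = 5 each; log2 fold change 0.86 ± 0.15, adjusted p = 0.0478). Pde8a, a phosphodiesterase gene for cAMP, averaged 17.8 ± 2.84 CPM in APP/Tau mice and 10.95 ± 1.200 CPM in controls (log2 fold change 0.70 ± 0.12, adjusted p = 0.0478).

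Of the genes that fell, Synpo encodes synaptopodin, of the spine apparatus of dendritic spines. Synpo had 176, 166, 178, 186 and 194 CPM in APP/Tau mice 1 to 5, against 226, 295, 259, 227 and 264 CPM in control mice 1 to 5 (log2 fold change -0.50 ± 0.08, adjusted p = 0.0402). Ntng1 encodes netrin-G1, an axonal adhesion protein. Ntng1 had 21.4, 17.4, 20.03, 20.9 and 21.1 CPM in APP/Tau mice 1 to 5, against 40.2, 35.2, 28.4, 28.9 and 31.3 CPM in control mice 1 to 5 (log2 fold change -0.70 ± 0.10, adjusted p = 0.0238). Kitl encodes the ligand of the receptor Kit. Kitl had 23.03, 24.2, 24.5, 30.2 and 29.5 CPM in APP/Tau mice 1 to 5, against 53.6, 46.4, 39.1, 34.2 and 44.1 CPM in control mice 1 to 5 (log2 fold change -0.72 ± 0.12, adjusted p = 0.0422). For each of these 3 genes the controls were higher in all 5 mice than any APP/Tau mouse.

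Wnt7b, a Wnt ligand gene, averaged 33.6 ± 3.98 CPM in APP/Tau mice and 51.9 ± 6.35 CPM in controls (log2 fold change -0.63 ± 0.10, adjusted p = 0.0418). Ccnd2, which encodes cyclin D2, averaged 53.5 ± 6.87 CPM in APP/Tau mice and 77.2 ± 3.06 CPM in controls (log2 fold change -0.53 ± 0.08, adjusted p = 0.0375). Napepld, whose product makes anandamide-type lipids from their precursors, averaged 10.99 ± 1.41 CPM in APP/Tau mice and 18.1 ± 2.72 CPM in controls (log2 fold change -0.72 ± 0.12, adjusted p = 0.0422). The other 5 falling genes had smaller or similar changes. Adamts8, a metalloprotease gene, was at -0.95 ± 0.16 (adjusted p = 0.0478), and Tcte1, known from sperm flagella, at -0.53 ± 0.08 (0.0298). LOC118568224 was at -0.54 ± 0.08 (0.0298), Cxxc5 at -0.48 ± 0.08 (0.0418) and Rnf165, a ubiquitin ligase gene, at -0.46 ± 0.08 (0.0418).

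These 17 calls were kept less often than most at the 2 loci. Each was kept in 1 to 7 of the 10 fits without 1 library: Aldh3b1 in 7, Ntng1 in 5, and Mcam, Pde8a and Adamts8 in 1 each. With the level of central amygdala and striatal markers as a covariate, only LOC118568224 of the 17 was still called (adjusted p = 0.0394), and Synpo was at -0.47 ± 0.10 (adjusted p = 0.23). The log2 fold changes of the 17 with the covariate were 0.674 to 1.16 times those without it, lowest for Napepld and Wnt7b. Without the libraries APP/Tau 2 and Control 1 together, an alternative chosen after seeing the data, all 27 genes were called among 124.

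**Figure D3:**
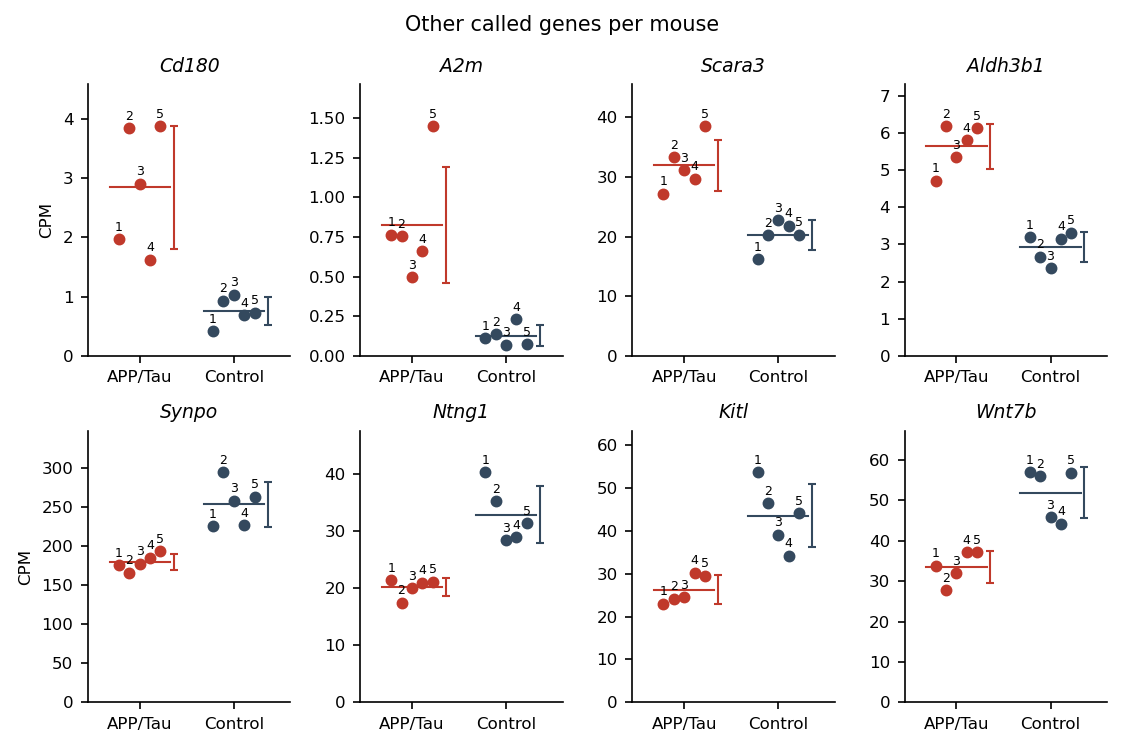
Levels in CPM (y axis, from 0) of 4 called genes that rose and 4 that fell, in APP/Tau mice (red) and controls (dark blue); points are single mice, numbered by replicate, lines are means and bars are SD (n = 5 each). Groups do not overlap in any panel, and APP/Tau 5 is the highest mouse for Cd180, A2m and Scara3.

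Microglial genes were higher in some APP/Tau mice, and none of the listed genes passed the test. In the lists that follow, limma-voom called 0 genes. Of 27 tested disease-associated microglia genes of 30 listed, 0 were called by edgeR, against 12 by DESeq2. In 26 the log2 fold change was above 0, in 19 the unadjusted p was under 0.05, and the median was 0.81, against 0.01 over all genes. Groups did not overlap for 9 of them (background 2.5%). Cst7, a cystatin gene of activated microglia, had 0.765, 0.855, 0.191, 0.199 and 4.91 CPM in APP/Tau mice 1 to 5, against 0, 0.0556, 0.123, 0.05004 and 0.131 CPM in control mice 1 to 5. APP/Tau 5 alone carried most of it, and Cst7 was not called (log2 fold change 4.24 ± 0.97, adjusted p = 0.07301). All APP/Tau mice lay above all controls. Cst7 passed the filter on low counts only through the APP/Tau libraries, so this gap is no separate support. Cst7 is among the 9 genes without overlap. Without APP/Tau 5 the log2 fold change of Cst7 was 2.78 (adjusted p = 0.115), and the median of the list was 0.48. Clec7a, a beta-glucan receptor gene, did not pass the filter; its raw counts were 22, 198, 5, 5 and 296 in APP/Tau mice 1 to 5, against 4, 0, 20, 2 and 4 in control mice 1 to 5. Trem2, the microglial lipid receptor gene, had 10.8, 22.1, 13.1, 10.4 and 29.4 CPM in APP/Tau mice 1 to 5, against 9.75, 7.49, 11.03, 10.4 and 8.87 CPM in control mice 1 to 5. Its groups overlapped, with APP/Tau 5 and APP/Tau 2 high and the other APP/Tau mice at 10.4 to 13.1 CPM (log2 fold change 0.86 ± 0.26, adjusted p = 0.121). Apoe, a lipid carrier gene, had 1733, 2109, 1806, 1655 and 2200.3 CPM in APP/Tau mice 1 to 5, against 1639, 1358, 1623, 1504 and 1325 CPM in control mice 1 to 5, with no overlap (log2 fold change 0.35 ± 0.09, adjusted p = 0.0986).

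Homeostatic microglial genes had a lower median. None of 18 was called (edgeR), 12 had an unadjusted p under 0.05, DESeq2 called 7, and the median was 0.45. P2ry12 ranged from 30.7 to 34.1 CPM in APP/Tau mice and 18.5 to 34.5 CPM in controls (log2 fold change 0.23 ± 0.14, adjusted p = 0.425) and Tmem119 from 18.1 to 29.4 CPM in APP/Tau mice and 16.05 to 26.7 CPM in controls (log2 fold change 0.03 ± 0.16, adjusted p = 0.941), both overlapping. Complement and Fc receptor genes had 0 of 14 called, 9 with an unadjusted p under 0.05, 4 by DESeq2 and a median of 0.55. C4b, a complement component gene, had 22.9, 37.8, 14.2, 22.5 and 69.00 CPM in APP/Tau mice 1 to 5, against 13.8, 11.9, 17.8, 11.8 and 5.16 CPM in control mice 1 to 5 (log2 fold change 1.46 ± 0.39, adjusted p = 0.0987), and C1qa ranged from 33.9 to 94.2 CPM in APP/Tau mice and 24.6 to 35.6 CPM in controls. For both, APP/Tau 5 was highest and APP/Tau 2 next. Antigen presentation genes had 0 of 14 called (edgeR), 5 with an unadjusted p under 0.05, 0 by DESeq2 and a median of 0.29. For Cd74 the range was 1.13 to 18.5 CPM in APP/Tau mice and 1.31 to 3.33 CPM in controls, and for H2-Aa 0.232 to 5.16 CPM in APP/Tau mice and 0.2002 to 0.898 CPM in controls. Interferon-response genes had 0 of 21 called (edgeR), 4 with an unadjusted p under 0.05 (3 higher and 1 lower), 3 by DESeq2 and a median of 0.37. Ifit3 had 4.23, 6.17, 2.94, 3.57 and 7.61 CPM in APP/Tau mice 1 to 5, against 1.95, 2.49, 2.297, 2.49 and 2.45 CPM in control mice 1 to 5, without overlap (log2 fold change 1.07 ± 0.23, adjusted p = 0.0701), while Ifit1 overlapped (log2 fold change 0.48 ± 0.34, adjusted p = 0.495). Of 14 lymphocyte genes only 3 passed the filter. None was called by edgeR, 2 had an unadjusted p under 0.05, both higher, DESeq2 called 1, and the median was 1.72. Ly9 (2.29 ± 0.69, adjusted p = 0.117), Cd4 (1.72 ± 0.77, 0.266) and Trac (-0.24 ± 0.52, 0.848) were named after their values were seen. Ly9 was highest in APP/Tau 5 (3.79 CPM) and Cd4 in APP/Tau 2 (37.95 CPM). The T cell receptor gene Cd3e had 0 to 4 raw counts in APP/Tau mice and 0 to 4 in controls.

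Among astrocyte genes Gfap, an intermediate filament of reactive astrocytes, differed most between mice. Gfap had 108, 285, 50.1, 96.1 and 674 CPM in APP/Tau mice 1 to 5, against 83.9, 40.7, 62.03, 35.5 and 28.9 CPM in control mice 1 to 5. APP/Tau 5 and APP/Tau 2 were far above every control, APP/Tau 3 lay within the control range, and the gene was not called (log2 fold change 2.27 ± 0.60, adjusted p = 0.0946). Without APP/Tau 5 the log2 fold change was 1.42 (adjusted p = 0.156). Of 18 reactive astrocyte genes tested, 0 were called by edgeR (9 with an unadjusted p under 0.05, 5 by DESeq2), with a median of 0.24. In 12 the log2 fold change was above 0 and in 6 below, and of the 9, 6 were higher and 3 lower. The 3, named after their values were seen, were S100a10 (-0.75 ± 0.17, adjusted p = 0.0701), without overlap, Hspb1 (-0.70 ± 0.21, 0.120) and Amigo2 (-0.26 ± 0.11, 0.245). Vim was at 0.27 ± 0.14. General astrocyte genes had 0 of 14 called (edgeR), 6 with an unadjusted p under 0.05, 2 by DESeq2, a median of 0.21 and 5 genes without overlap (background 2.5%). Aldh1l1 was at 0.03 ± 0.08 and the water channel gene Aqp4 at 0.22 ± 0.14.

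Myelin genes were all somewhat higher on average in APP/Tau mice. All 18 had a log2 fold change above 0 and an unadjusted p under 0.05, and 0 were called by edgeR, against 16 by DESeq2. The median was 0.63, and groups did not overlap for 8 (background 2.5%). Mbp, which encodes myelin basic protein, had 1385, 2215, 1420.2, 1126 and 1397 CPM in APP/Tau mice 1 to 5, against 991, 825, 1053, 963 and 1072 CPM in control mice 1 to 5 (log2 fold change 0.62 ± 0.15, adjusted p = 0.0789). APP/Tau 2 was highest for Mbp, and summed myelin levels were 3366 to 6858 CPM in APP/Tau mice and 2527 to 3334 CPM in controls. The median was 0.47 without APP/Tau 2 and Control 1 together and 0.32 with striatal markers as a covariate; the part of tissue makeup in this result was not tested. Oligodendrocyte precursor genes had 0 of 11 called (edgeR), 2 with an unadjusted p under 0.05, 0 by DESeq2 and a median of 0.07, with Pdgfra at 0.10 ± 0.10 and Cspg4 at 0.02 ± 0.10.

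**Figure D4:**
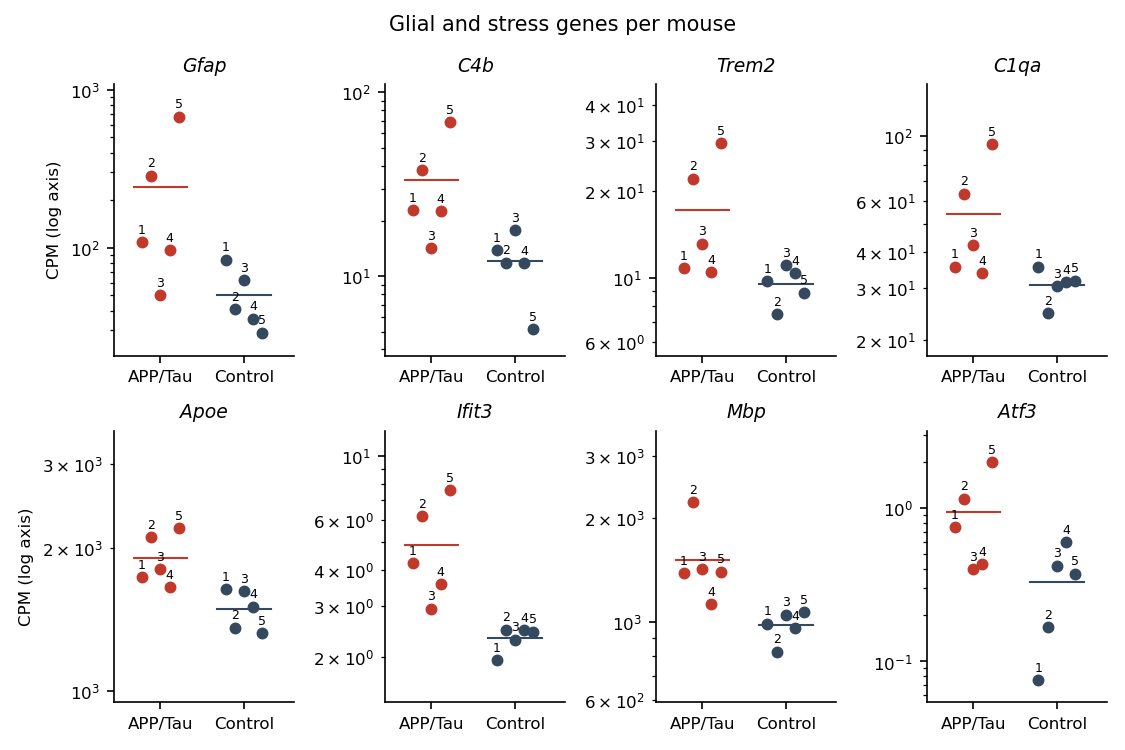
Levels in CPM (y axes, log scale) of glial and stress genes in APP/Tau mice (red) and controls (dark blue); points are single mice, numbered by replicate, and lines are means (n = 5 each). APP/Tau 5 and APP/Tau 2 are the highest mice for Gfap, C4b, Trem2, C1qa, Apoe, Ifit3 and Atf3, and APP/Tau 2 for Mbp.

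Vessel, meningeal and blood genes were measured as markers of other cells in the punch. Endothelial and vessel wall genes had 0 of 20 called (edgeR), 5 with an unadjusted p under 0.05, 5 by DESeq2 and a median of 0.18. The pericyte gene Pdgfrb had 16.6, 18.8, 18.6, 17.7 and 17.4 CPM in APP/Tau mice 1 to 5, against 12.7, 13.7, 14.96, 15.2 and 12.4 CPM in control mice 1 to 5 without overlap (log2 fold change 0.37 ± 0.08, adjusted p = 0.0702), whereas the endothelial gene Cldn5 overlapped (log2 fold change -0.22 ± 0.18, adjusted p = 0.549). Meningeal and choroid plexus genes had 0 of 11 called (edgeR), 6 with an unadjusted p under 0.05, 3 by DESeq2 and a median of 0.49. Their summed level was 66.8 to 95.6 CPM in APP/Tau mice and 39.5 to 64.4 CPM in controls. Blood genes had 0 of 5 called (edgeR), 0 with an unadjusted p under 0.05, 0 by DESeq2 and a median of 0.52. The haemoglobin gene Hbb-bs ranged from 11.3 to 77.9 CPM in APP/Tau mice and 12.5 to 29.5 CPM in controls, highest in APP/Tau 2.

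Marker genes of regional neurons differed on average as well. Of 14 BLA projection neuron genes, 13 had a log2 fold change below 0, 10 an unadjusted p under 0.05 and 0 a call by edgeR (6 by DESeq2); the median was -0.51. Slc17a7, the vesicular glutamate transporter gene of these cells, had 799, 393, 915, 1457 and 1130.3 CPM in APP/Tau mice 1 to 5, against 1557, 1671, 1370.3, 1377 and 1654 CPM in control mice 1 to 5 (log2 fold change -0.70 ± 0.25, adjusted p = 0.168). Rspo2 had 37.95, 5.71, 38.2, 60.4 and 33.9 CPM in APP/Tau mice 1 to 5, against 36.5, 53.1, 39.7, 64.1 and 53.1 CPM in control mice 1 to 5 (log2 fold change -0.49 ± 0.40, adjusted p = 0.566). Both were lowest in APP/Tau 2. Neurod2, a transcription factor gene of excitatory neurons, had 30.3, 15.3, 32.3, 49.7 and 48.2 CPM in APP/Tau mice 1 to 5, against 78.1, 76.9, 60.8, 58.7 and 81.2 CPM in control mice 1 to 5, without overlap (log2 fold change -1.02 ± 0.25, adjusted p = 0.0807). Central amygdala and striatum genes ran the other way: all 19 had a log2 fold change above 0, 16 an unadjusted p under 0.05 and 0 a call by edgeR (1 by DESeq2), with a median of 0.96. Ppp1r1b, which encodes DARPP-32, had 286, 1166, 404, 169 and 340.3 CPM in APP/Tau mice 1 to 5, against 117, 213, 339, 279 and 116 CPM in control mice 1 to 5 (log2 fold change 1.15 ± 0.46, adjusted p = 0.217), and Prkcd, of lateral central amygdala neurons, had 34.1, 13.4, 36.3, 51.5 and 113 CPM in APP/Tau mice 1 to 5, against 52.3, 36.2, 55.7, 26.7 and 26.4 CPM in control mice 1 to 5 (log2 fold change 0.33 ± 0.43, adjusted p = 0.726). The summed level of these 19 genes was 1416 to 6093 CPM in APP/Tau mice and 836 to 2026 CPM in controls, with APP/Tau 2 highest and Control 1 lowest. Without APP/Tau 2 the median of this list was 0.52. Without both libraries it was 0.37, and that of the BLA list was -0.47. With the covariate the median of the BLA list was -0.29. The covariate is made from the central amygdala and striatum genes themselves, so their own median with it, -0.06, is near 0 by construction. The part of where the punch fell in the other results was not tested.

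Synaptic and channel genes were slightly lower on average and interneuron and neuropeptide genes were mixed, without a call. Presynaptic genes had 0 of 19 called (edgeR), 11 with an unadjusted p under 0.05, all lower, 5 by DESeq2 and a median of -0.24. Bsn, of the active zone, was at -0.58 ± 0.15 (adjusted p = 0.0909) and the vesicle gene Syn1 at -0.28 ± 0.12 (0.267). Glutamate receptor and postsynaptic genes had 0 of 24 called (edgeR), 8 with an unadjusted p under 0.05, 7 by DESeq2 and a median of -0.09. Grin2b, an NMDA receptor subunit gene, was at -0.34 ± 0.10 (0.109), and the scaffold gene Dlg4 at -0.01 ± 0.06. Voltage-gated channel genes had 0 of 20 called (edgeR), 4 with an unadjusted p under 0.05, 2 by DESeq2 and a median of -0.11, with Scn2a at -0.16 ± 0.07. Interneuron genes had 0 of 14 called (edgeR), 8 with an unadjusted p under 0.05 (4 higher and 4 lower), 3 by DESeq2 and a median of -0.13; Gad1 was at 0.25 ± 0.12 and Pvalb at -0.30 ± 0.37. Neuropeptide genes had 0 of 18 called (edgeR), 6 with an unadjusted p under 0.05 (3 higher and 3 lower), 2 by DESeq2 and a median of 0.05; Crh was at 0.36 ± 0.25 and Npy1r at -0.17 ± 0.12.

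Immediate early genes, which neurons switch on with activity, were lower on average in untrained APP/Tau mice. Of 22, 19 had a log2 fold change below 0, 13 an unadjusted p under 0.05 and 0 a call by edgeR (5 by DESeq2); the median was -0.54. Fos had 9.08, 7.81, 8.22, 6.47 and 18.4 CPM in APP/Tau mice 1 to 5, against 6.34, 20.8, 20.5, 33.4 and 15.4 CPM in control mice 1 to 5 (log2 fold change -0.95 ± 0.37, adjusted p = 0.204). Arc had 49.3, 46.1, 42.4, 48.9 and 60.5 CPM in APP/Tau mice 1 to 5, against 36.5, 99.4, 83.4, 109 and 61.5 CPM in control mice 1 to 5 (log2 fold change -0.66 ± 0.23, adjusted p = 0.165). Control 1 was the lowest control for both and lay within or below the APP/Tau range, so the groups overlapped. Nr4a3 had 47.1, 15.5, 37.8, 51.4 and 52.2 CPM in APP/Tau mice 1 to 5, against 87.8, 116, 76.9, 101 and 98.95 CPM in control mice 1 to 5, the only one of the 22 without overlap (background 2.4%; log2 fold change -1.24 ± 0.25, adjusted p = 0.0655). In the trained BLA the median of these genes was 0.05, and the log2 fold changes were 0.09 ± 0.37 for Fos and 0.03 ± 0.26 for Arc. The difference, naive minus trained, was -1.04 ± 0.52 for Fos and -0.69 ± 0.36 for Arc. Neither difference was called (edgeR interaction, adjusted p = 0.949 for each).

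Sterol synthesis genes were also lower on average. Of 21 genes, 19 had a log2 fold change below 0 and 0 were called by edgeR (15 with an unadjusted p under 0.05, 14 of them lower, 8 by DESeq2); the median was -0.29. Stard4, a sterol carrier gene, had 33.2, 25.1, 38.6, 37.6 and 20.9 CPM in APP/Tau mice 1 to 5, against 53.6, 49.6, 40.5, 56.5 and 54.7 CPM in control mice 1 to 5, without overlap (log2 fold change -0.71 ± 0.16, adjusted p = 0.0701). APP/Tau 2 and APP/Tau 5, the mice with most Gfap, were the lowest for Stard4. Heat shock and stress-response genes had 0 of 20 called (edgeR), 12 with an unadjusted p under 0.05 (2 higher and 10 lower), 5 by DESeq2 and a median of -0.19. The chaperone gene Hspa5 had 265, 255, 259, 237 and 281 CPM in APP/Tau mice 1 to 5, against 372, 380.4, 289, 314 and 325 CPM in control mice 1 to 5, without overlap (log2 fold change -0.37 ± 0.08, adjusted p = 0.0701), and the stress-induced factor gene Atf3 had 0.748, 1.15, 0.401, 0.4302 and 1.99 CPM in APP/Tau mice 1 to 5, against 0.0757, 0.167, 0.421, 0.6005 and 0.374 CPM in control mice 1 to 5 (log2 fold change 1.53 ± 0.55, adjusted p = 0.175).

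The remaining lists lay near the median of all genes. Lysosome and autophagy genes had 0 of 23 called (edgeR), 7 with an unadjusted p under 0.05 (5 higher and 2 lower), 2 by DESeq2 and a median of 0.09, with Lamp1 at 0.21 ± 0.06 (adjusted p = 0.1100) and Grn at 0.14 ± 0.11. Orthologs of Alzheimer risk genes had 0 of 24 called (edgeR), 6 with an unadjusted p under 0.05 (5 higher and 1 lower), 1 by DESeq2 and a median of 0.01, with Bin1 at -0.17 ± 0.10 and Clu at 0.31 ± 0.10. Glucocorticoid-response and metallothionein genes had 0 of 15 called (edgeR), 6 with an unadjusted p under 0.05 (4 higher and 2 lower), 3 by DESeq2 and a median of 0.12, with Fkbp5 at 0.06 ± 0.10 and Mt1 at 0.30 ± 0.11. Nuclear oxidative phosphorylation genes had 0 of 23 called (edgeR), 0 with an unadjusted p under 0.05, 0 by DESeq2 and a median of -0.05, with Ndufa1 at 0.08 ± 0.10 and Cox4i1 at -0.07 ± 0.12.

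**Figure D5:**
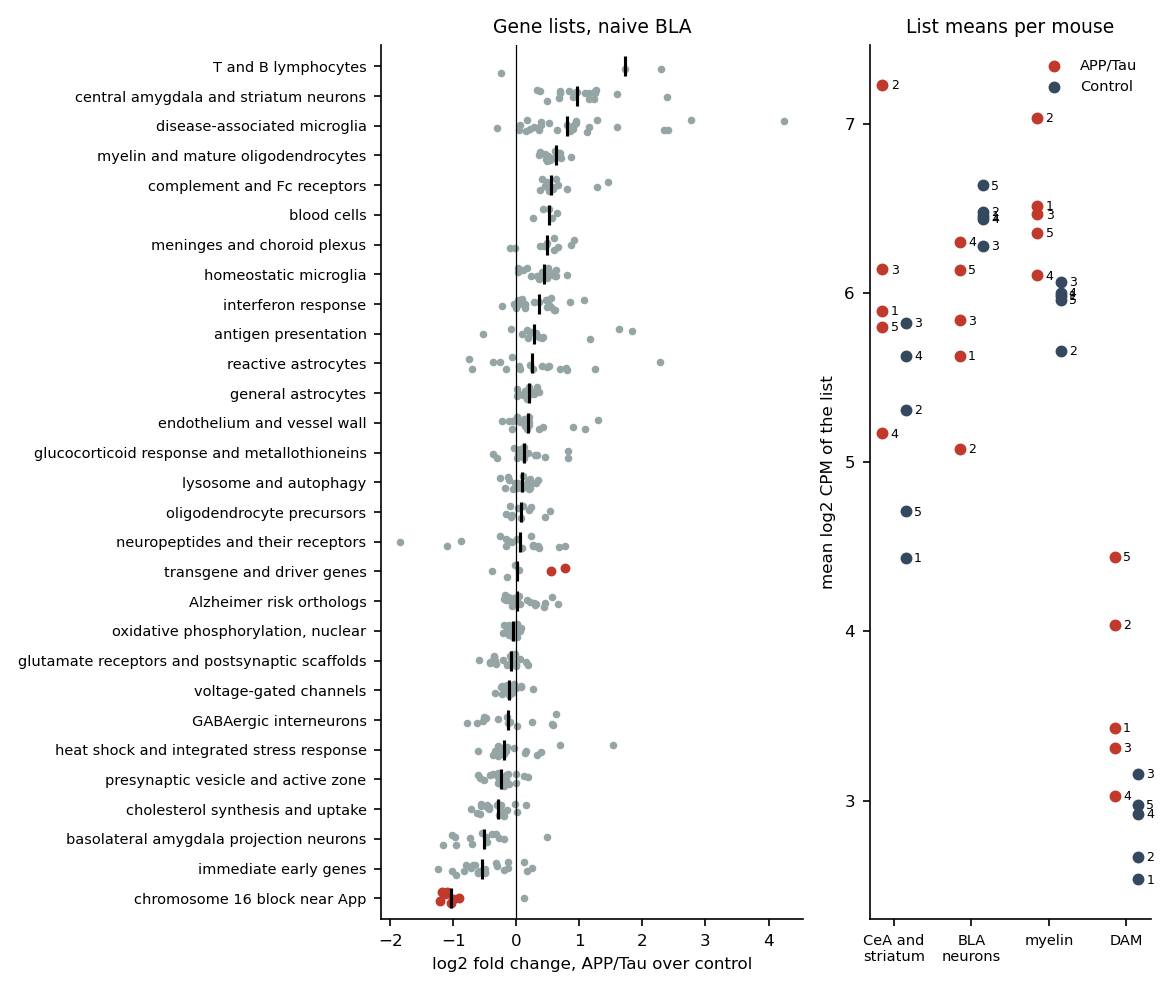
Left, log2 fold change, APP/Tau over control, of each tested gene (points, called genes in red) by list, with the list median as a black tick. Right, mean log2 CPM of 4 lists in single mice, numbered by replicate (APP/Tau red, control dark blue): central amygdala and striatum genes spread most between mice, with APP/Tau 2 highest and Control 1 lowest.

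Whether the effect differed after training or in the hippocampus was tested directly. Between naive and trained BLA, 0 of 23168 genes (0%) differed in their genotype effect by edgeR, with 894 at an unadjusted p under 0.05 and 0 by DESeq2. Gfap had log2 fold changes of 2.27 ± 0.60 in naive and 3.98 ± 0.80 in trained BLA, and the difference was -1.70 ± 1.02 (adjusted p = 0.949). Between the BLA and the hippocampus of naive mice, 1 of 24530 genes (0.00408%) differed, with 1984 at an unadjusted p under 0.05 and 47 called by DESeq2. This gene was App, at -0.14 ± 0.07 in the BLA and 0.47 ± 0.06 in the hippocampus, a difference of -0.63 ± 0.09 (adjusted p = 0.0177). The call was lost in 5 of the 10 fits without 1 BLA library, those without APP/Tau 1, APP/Tau 5, Control 2, Control 4 or Control 5. Prn was at 0.78 ± 0.09 in the BLA and 1.48 ± 0.09 in the hippocampus (difference -0.72 ± 0.12, adjusted p = 0.0591). Prnp was at 0.55 ± 0.09 and 1.17 ± 0.08 (difference -0.63 ± 0.12, adjusted p = 0.107). Hippocampal libraries were deeper, at 94.2 to 120.4 M counts, and whether libraries with the same number come from the same mouse is not given.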

How the data were processed

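RiboTag input RNA of 10 naive BLA libraries was analysed, 5 APP/Tau and 5 control, with the 9 trained BLA and 10 naive hippocampal libraries for the tests of differences. The authors deposited gene counts as whole numbers, without normalization, in tables of 50559 gene symbols. Per the submitters' processing notes, Trimmomatic 0.39 and build mm39 were used. Aligner, counter, annotation and strand setting: not given in the sources used here. Groups follow the labels.

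In R 4.3.3, low-count genes were dropped with filterByExpr (at least 10 counts, 15 in total), and the rest were scaled by TMM and tested with the 2-sided quasi-likelihood F test of edgeR 4.0.16, adjusted by Benjamini-Hochberg, threshold 0.05. SE comes from dividing the log2 fold change by the root of F. Spans of 1.96 SE each way use the normal quantile and are narrower than 95% intervals of the F test. For App such a span, -0.28 to -0.0042, leaves out 0, although the unadjusted p of the F test was 0.0646. The test was tried on simulated data. Alternatives were DESeq2 1.42.0, limma-voom (limma 3.58.1), RLE factors, other filters, a replicate block, all 19 BLA libraries, a covariate of central amygdala and striatum markers, and each library left out.

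Members and lists were chosen with earlier results of these data known. Named by rule are Gfap, C4b, Cst7, Trem2, Apoe, App, Mapt and Prnp, up to 8 called genes in each direction with the largest change that average 1 CPM or more and are not predicted genes, the first 2 genes of each list with up to 3 called members, and called interaction genes. Lamr1-ps1, A2m, Ntng1, Tcte1, LOC118568224, Ccnd2, Synpo, Wnt7b, Cxxc5, Rnf165, Napepld, Kitl, the 2 Rik genes within the run, 4930590A17Rik, LOC115486002, Gm33207, Gm46546, Tiam1, Camk2a, Rpl22, Neurod2, Nr4a3, Rassf2, Slc23a2, Hmox1 and the chaperonin and release-factor partners were named after their values were seen. Some genes that the rule names are not reported here. Gene order and promoter sequences are from RefSeq.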

Additional observations from a re-analysis of the deposited data

Results flagged for a closer look

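Of 167 groups of 5 libraries examined, 15 held a library far from the other 4 by Dixon's criterion, which chance alone meets in about 1 in 20 groups. There were 12 in APP/Tau mice and 3 in controls. APP/Tau 2 was the high library for Grik1 (6.08 CPM, next 4.55), H2-Aa (5.16 CPM, next 1.12), Mbp (2215 CPM, next 1420.2), Ppp1r1b (1166 CPM, next 404) and Pvalb (35.2 CPM, next 11.1). APP/Tau 5 was the high library for Cst7 (4.91 CPM, next 0.855), Fos (18.4 CPM, next 9.08), Grn (97.6 CPM, next 72.4) and A2m (1.45 CPM, next 0.765). APP/Tau 4 was high for Ttr (0.530 CPM, next 0.153) and Cd3d (0.0496 CPM, next 0), and APP/Tau 1 was low for P2ry12 (30.7 CPM, next 33.5). Among controls, Control 3 was high for Clec7a (0.351 CPM, next 0.0757) and Cd3d (0.0351 CPM, next 0) and Control 1 low for LOC118568224 (20.6 CPM, next 23.5). Cd3d, Ttr and Clec7a rest on few counts.

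The genotype effect on App differed between the BLA and the hippocampus of naive mice by -0.63 ± 0.09 (edgeR interaction, adjusted p = 0.0177).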

How the results depend on the processing

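The 27 calls of the naive BLA became 1205 with DESeq2, 16 with limma-voom, 195 with no filter on low counts, 9 with all 19 BLA libraries and 10 with the covariate of striatal markers. They became 124 without APP/Tau 2 and Control 1 together, an alternative chosen after seeing the data, and 9 to 342 without 1 library. With RLE factors there were 24 and with a mean of at least 1 CPM 27. Ltn1, Usp16, Cct8 and Rwdd2b stayed called under all 19 alternatives run for them. With the sample number as a replicate block the count was 4, those 4 genes. Same-numbered APP/Tau and control libraries did not deviate together (r of -0.08 to 0.0025, 0 of 5 over 0.1), so the numbers pair nothing. Between BLA and hippocampus, r was 0.054 to 0.29, over 0.1 in 9 of 10, and the labels do not say that a number is 1 mouse. The call of 1 gene between tissues became 47 with DESeq2, 2 with no filter, 3 with a mean of at least 1 CPM, 3 with the replicate block and 0 to 3 without 1 library. Naive minus trained gave 0 under each alternative, the block included. The cause of these shifts was not tested. No called value turned sign. Of named genes whose value did, H2-Aa (1.84), Ppp1r1b (1.15), Hbb-bs (0.56), Crh (0.36) and Prkcd (0.33) were the farthest from 0 as reported, and the rest were at -0.17 to 0.10. Among list medians, that of the blood list (0.52) reached -0.0998 in its lowest alternative. The neuropeptide median (0.05) reached -0.042, and the oxidative phosphorylation median (-0.05) reached 0.034. The sign turned with the covariate for Mapt (0.10), Tmem119 (-0.17), H2-Aa (-0.0060), Aldh1l1 (-0.014), Pdgfra (-0.034), Dcn (0.11), Ppp1r1b (-0.14), Crh (-0.0051), Bin1 (0.020) and Fkbp5 (-0.030); so did the medians of the central amygdala and striatum list, from which the covariate is made (-0.06), the oligodendrocyte precursor list (-0.034), the glucocorticoid and metallothionein list (-0.03) and the Alzheimer risk list (-0.011, and -0.0044 without both libraries). It turned without both libraries for Mapt (0.063), Tmem119 (-0.14), Dcn (0.051), Fkbp5 (-0.022) and Cox4i1 (0.0031). Without 1 library the range spanned 0, with -0.0092 to 0.069 for Aldh1l1, -0.13 to 0.059 for Cox4i1, -0.055 to 0.060 for Cspg4, -0.20 to 0.065 for Dcn, -0.034 to 0.0061 for Dlg4, -0.039 to 0.12 for Fkbp5, -0.10 to 0.77 for Hbb-bs, -0.056 to 0.020 for Mapt, -0.22 to 0.57 for Prkcd, -0.072 to 0.12 for Tmem119 and -0.012 to 0.063 for transgene and driver genes. In data simulated on the naive BLA comparison (21066 genes), 70.8% of changes of 1 log2 unit and 91.6% of 2 log2 units were recovered, with 9 false calls. Smaller changes were not simulated. Each gene was drawn independently, without shifts that genes of a library share, so the share recovered in the real data is not known.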
